A study of Mus musculus with 235 samples.

Results

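The 10 genes Arc, Egr1, Egr3, Fos, Junb, Nr4a1, Npas4, Ier2, Homer1 and Btg1 are early response genes, whose transcripts are made within minutes when a neuron becomes active. They were chosen by name, as the rows with these symbols in a table of 27998 genes, and all 10 had counts. Messenger RNA was counted in 235 libraries from tissue punched out of 8 brain regions of 30 mice. The labels give the regions as PFC, AMY, PVN, CER, dCA1, dDG, vCA1 and vDG, and these names are used here without expansion. All animals were C57Bl/6 males, 3 months old. Saline was injected into the peritoneum of 15 of them as vehicle, and the other 15 were given the synthetic glucocorticoid dexamethasone by the same route (10 mg per kg). All were killed 4 h later. Every animal was injected, and no uninjected group was analysed here. The study was made to describe the response to glucocorticoids by region. For the early response genes this gives 3 comparisons, which are their levels among regions, their covariation between animals within a region, and their direction after dexamethasone.

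In neurons, calcium entry through glutamate receptors and voltage-gated channels activates kinases that phosphorylate transcription factors already bound at the promoters of these genes, among them CREB and the serum response factor. No protein has to be made first, so transcripts rise quickly and most of them decay quickly. Fos and Junb encode subunits of the AP-1 transcription factor. Egr1 and Egr3 encode zinc-finger factors, Nr4a1 an orphan nuclear receptor, and Npas4 a factor that is induced mainly by calcium entry in neurons. Arc encodes a protein that promotes removal of AMPA receptors from synapses, and Homer1 encodes a scaffold that links metabotropic glutamate receptors to other proteins of the postsynaptic density. Ier2 encodes a small nuclear protein, and Btg1 a protein that restrains cell proliferation. Glucocorticoids act through the glucocorticoid receptor, which raises some genes by binding DNA and lowers others, some of them through AP-1.

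Promoters are shown first because a site for CREB recurs in them. RefSeq promoter windows of 250 bases before the transcription start (build GRCm38.p6) matched 6 of the 10 members. They were Fos, Junb, Nr4a1, Npas4, Homer1 and Btg1, with 7 windows in all because Homer1 has 2. The windows of 5 genes follow 5′ to 3′ on the strand of the gene. Capitals mark the core of the cyclic AMP response element, TGACG or its reverse complement CGTCA.
Fos, chr12:85473640-85473889, plus strand: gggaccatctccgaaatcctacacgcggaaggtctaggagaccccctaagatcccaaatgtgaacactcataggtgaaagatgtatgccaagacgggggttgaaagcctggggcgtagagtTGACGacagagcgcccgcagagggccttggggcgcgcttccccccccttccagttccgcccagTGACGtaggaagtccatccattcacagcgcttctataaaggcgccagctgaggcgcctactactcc
Junb, chr8:84978749-84978998, minus strand: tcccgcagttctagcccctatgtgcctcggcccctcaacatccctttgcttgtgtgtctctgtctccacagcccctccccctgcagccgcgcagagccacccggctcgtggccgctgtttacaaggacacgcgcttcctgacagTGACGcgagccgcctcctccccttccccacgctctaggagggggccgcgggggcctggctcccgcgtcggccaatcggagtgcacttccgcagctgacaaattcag
Nr4a1, chr15:101266596-101266845, plus strand: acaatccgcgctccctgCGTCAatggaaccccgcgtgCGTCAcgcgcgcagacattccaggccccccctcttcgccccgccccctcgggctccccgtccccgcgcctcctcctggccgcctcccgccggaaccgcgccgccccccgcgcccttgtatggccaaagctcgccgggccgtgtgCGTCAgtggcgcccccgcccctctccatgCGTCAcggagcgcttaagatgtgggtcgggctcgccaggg
Npas4, chr19:4989972-4990221, minus strand: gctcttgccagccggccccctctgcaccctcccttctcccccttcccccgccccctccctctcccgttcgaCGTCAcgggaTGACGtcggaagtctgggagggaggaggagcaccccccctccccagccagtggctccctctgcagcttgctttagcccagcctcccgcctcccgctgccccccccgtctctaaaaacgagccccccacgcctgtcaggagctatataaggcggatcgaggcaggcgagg
Homer1, chr13:93303507-93303756, plus strand: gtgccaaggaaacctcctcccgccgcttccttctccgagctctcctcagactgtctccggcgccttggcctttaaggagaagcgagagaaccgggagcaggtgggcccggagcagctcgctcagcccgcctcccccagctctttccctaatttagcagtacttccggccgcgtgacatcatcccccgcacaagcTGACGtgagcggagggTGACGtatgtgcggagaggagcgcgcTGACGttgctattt

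The core was found on either strand in at least 1 window of all 6 genes, against 17.8% of 32851 RefSeq promoters of the same length. Nr4a1 held 4 copies and Homer1 held 3, all 3 within 56 bases of its start. The second Homer1 window held none. Other motifs were rarer. The full element TGACGTCA stood in 1.55% of all promoters and the AP-1 site TGANTCA in 6.75%, and neither stood in a member window. The CArG box, which the serum response factor binds, stood in 1.47% of promoters and in no member window. The EGR site GCGNGGGCG (4.7% of promoters) was found in the Nr4a1 window, 60 bases before the start. The canonical palindromic glucocorticoid response element was found in 3 promoters of the table (0.00913%), none of them a member's, and the NR4A site AAAGGTCA (1.34%) in no member window. The TATA letters TATAAA, present in 12.4% of promoters, were found in Fos, 33 bases before the start, and in Btg1. All motifs were searched on both strands. The core is contained in the full element, and a match is a description of letters, not of binding.

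Library totals ran from 268538 to 1451422 counts (median 742957), so 1 count was worth 1.19 (PFC, vehicle) to 1.65 (AMY, dexamethasone) CPM (counts scaled to a common library total) at a group's median depth. The region labels were checked against marker genes, and CER, dCA1 and single libraries of vDG, dDG and other regions went against them. Cerebellar granule cells express Gabra6, which had no count in the 15 vehicle libraries of CER and 11 counts over its 15 dexamethasone libraries. Prox1, a gene of dentate granule cells, stood at 514 ± 140 CPM (SD, n = 15) in vehicle dCA1 and at 455 ± 249 CPM (SD, n = 15) in vehicle dDG. Single dDG libraries held as little as 65.0 CPM after vehicle and 63.9 CPM after dexamethasone. The summed level of 8 dentate granule cell markers had a vehicle median of 1076 CPM in dDG, 1361.5 in dCA1 and 420 in vDG. In vehicle dDG it ran from 181 to 2204 CPM. The names CER, dCA1 and dDG are therefore used only as labels. No library was left out for low Prox1. Gabra6 stood at 10 CPM or more in 10 libraries, which were vehicle replicates 4, 5, 14 and 15 and dexamethasone replicates 3, 4 and 13 of vDG, vehicle replicate 15 of vCA1, and dexamethasone replicate 14 of both PFC and CER. It was highest in vDG, at 244 CPM in vehicle replicate 4 and 337 CPM in dexamethasone replicate 13, and stood at 255 CPM in the vCA1 library. Results were also computed without these 10 libraries, a choice made after seeing the data, and values without them are given beside the results below where they changed an order, a call or a count of calls. The treatment was seen in the data, since the glucocorticoid response genes Fkbp5 and Tsc22d3 rose in all 8 regions. Fkbp5 rose by 1.64 (dDG) to 2.79 (PFC) on the log2 scale. In pieces of tissue, fewer cells of a type and less RNA per cell cannot be told apart.

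**Figure D1:**
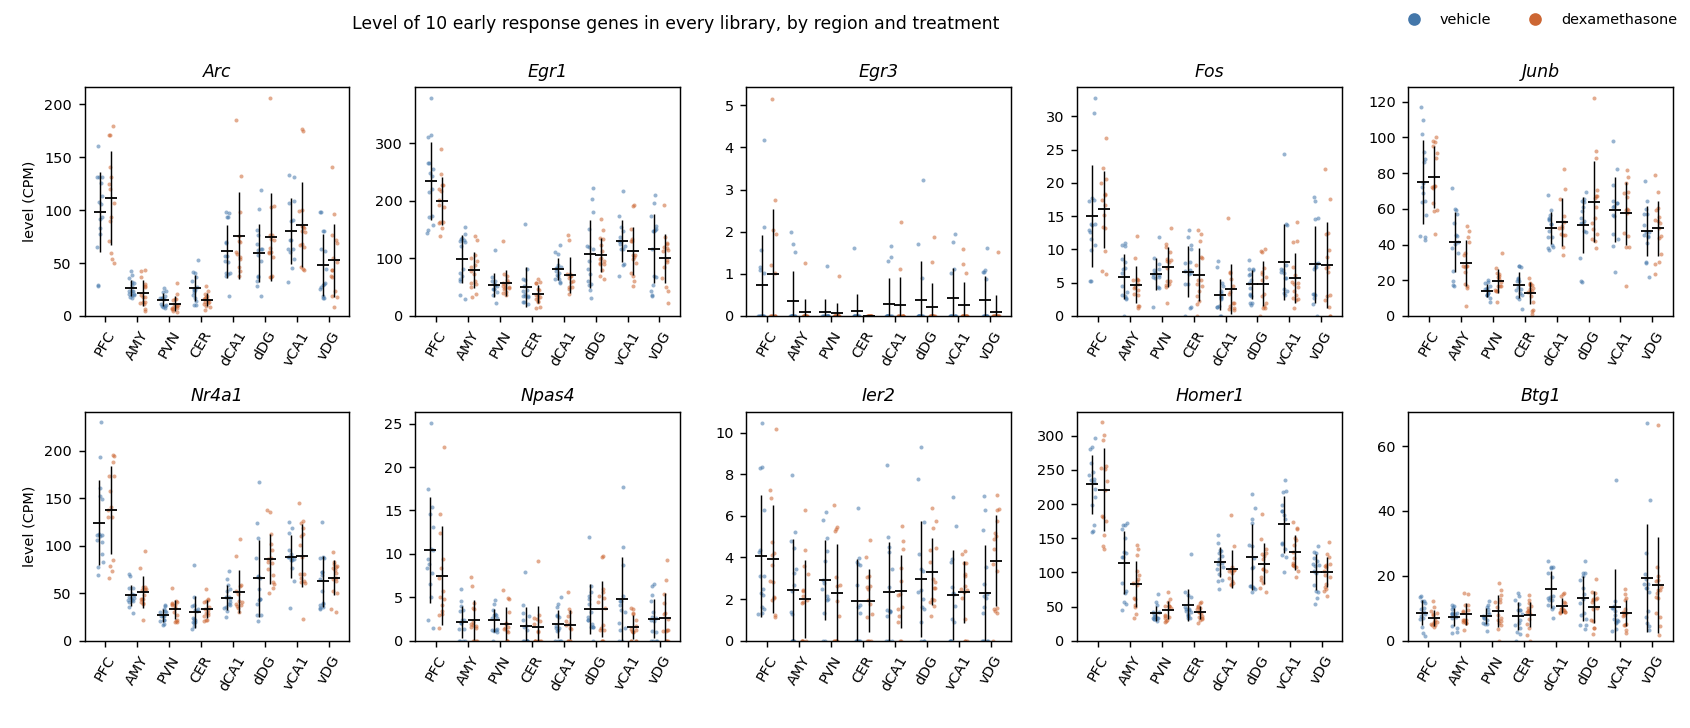
Level of each of the 10 genes (vertical axis, CPM, linear from 0, 1 panel per gene) in the 8 regions (horizontal axis). Points are libraries, blue for vehicle and orange for dexamethasone, horizontal ticks are means and vertical bars are SD (n = 13 to 15). PFC has the highest vehicle mean for 9 of the 10 genes, and Btg1 is highest in vDG, where 3 libraries with Gabra6 lie far above the rest.

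In vehicle animals the early response genes were highest in PFC. The PFC mean was the highest of the 8 regions for every member except Btg1, and PVN or CER had the lowest mean for Arc, Egr1, Junb, Nr4a1, Npas4, Ier2 and Homer1. Without the libraries with Gabra6 the lowest Ier2 mean was that of vCA1 (1.84 CPM, against 1.92 CPM in CER). Under the same setting vDG moved from the fifth to the third place for Junb (51.3 CPM, against 50.7 CPM in dDG and 49.3 CPM in dCA1), and AMY passed vDG for Egr3. Arc, read at synapses as a trace of recent activity, ranged from 28.7 through a median of 106 to 160 CPM over the 15 PFC libraries. In PVN it ranged from 7.49 through 16.5 to 26.0 CPM over 14 libraries, so every PFC library was above every PVN library. The Arc mean fell 6.38-fold from PFC to PVN. Homer1 was at 159, 235 and 296 CPM (lowest, median and highest) in PFC and at 28.2, 35.6 and 67.7 CPM in PVN, again without overlap. Egr1 was at 144, 243 and 379 CPM in PFC and at 20.6, 38.9 and 159 CPM in CER, so the highest CER library lay inside the PFC range. Junb stood at 42.4, 72.4 and 117 CPM in PFC and at 7.86, 14.0 and 20.0 CPM in PVN. Nr4a1 stood at 69.2, 112 and 230 CPM in PFC and at 16.6, 25.9 and 37.5 CPM in PVN. For both of these transcription factors the PFC and PVN libraries did not overlap. How many of all genes have their highest mean in PFC was not counted. Nor was it counted how many keep the PFC and PVN libraries apart. Whether either trait is particular to these genes is therefore not shown.

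Within a vehicle animal the highest level lay in PFC in at least 9 of 13 animals for 6 of the 10 members. Of the 13 vehicle animals with a library in every region, 12 had their highest Egr1 value in PFC, 12 their highest Npas4, 11 their highest Homer1, 10 their highest Nr4a1 and 9 their highest Arc and Fos. Junb was highest in PFC in 6 of the 13 and in vCA1 in 3. Ier2 was highest in PFC in 5 of the 13 and Egr3 in 3, the latter with as many in AMY and in dDG. Btg1 was spread differently, with its highest value in dCA1 in 5 animals and in vDG in 4, 1 of the 4 being a library with Gabra6. Of the 13 dexamethasone animals with every region, 13 had their highest Egr1 in PFC, 12 their highest Homer1, 10 Fos, 8 Nr4a1, 7 Junb and 6 Arc and Npas4. Whether these counts differed between treatments was not tested, and the same counts were not made for all genes.

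The region differences were tested in 1 edgeR fit with the animal as a block. Arc, Egr1, Junb, Nr4a1, Homer1 and Btg1 passed the filter on low counts, and all 6 of 6 differed among regions. Differences among regions were common, with 73.3% of 10451 genes tested past the threshold. Homer1 had the largest F statistic of the 6 (53.5, adjusted p = 4.86e-31) and Btg1 the smallest (8.06, adjusted p = 1.96e-07). Without the 10 libraries with Gabra6 all 6 still passed. Over the 28 pairs of regions the 6 genes passed in 112 of 168 tests (66.7%), against 31.6% of all gene and pair tests. Nr4a1 differed in 22 of its 28 pairs, Arc and Homer1 in 21 each, Egr1 in 18, Junb in 17 and Btg1 in 13. Without the libraries with Gabra6 the counts were 21 for Nr4a1, Arc and Homer1 each, 19 for Egr1 and Junb each and 15 for Btg1. PFC was above all 7 other regions for Egr1, Nr4a1 and Homer1, and above 6 of 7 for Arc and Junb. How often this held among all genes was not counted.

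The order of means for Arc was PFC, vCA1, dCA1, dDG, vDG, CER, AMY and PVN. Of its 7 neighbouring steps, 2 passed, vDG over CER (0.88 ± 0.22 SE on the log2 scale, edgeR adjusted p = 0.000745) and AMY over PVN (0.79 ± 0.26 SE, adjusted p = 0.0136). The PFC step over vCA1 was 0.31 ± 0.18 (SE) and did not pass (adjusted p = 0.201). Homer1 fell from PFC to vCA1 by 0.46 ± 0.14 (SE, adjusted p = 0.00645), from vCA1 to dDG by 0.49 ± 0.15 (adjusted p = 0.00593) and from vDG to CER by 0.99 ± 0.16 (adjusted p = 2.74e-07). Between these steps dDG, dCA1, AMY and vDG did not differ from their neighbours beyond error. Egr1 had 2 such steps, PFC over vCA1 (0.85 ± 0.20 SE) and dCA1 over PVN (0.65 ± 0.23). Junb had only 1, AMY over CER, and it was 1.26 ± 0.18 (SE, adjusted p = 8.71e-09). No neighbouring step of Btg1 passed with all libraries.

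Regions also differed in cell makeup and in RNA quality, and the part of either in these orders was not tested. The summed level of 4 excitatory neuron markers (Slc17a7, Camk2a, Neurod6 and Nrn1) had vehicle medians of 5250 CPM in PFC, 3096 in vDG, 4678 in vCA1, 5374 in dDG and 6395 in dCA1. It was 1396 CPM in AMY, 874 in PVN and 609 in CER. Nrn1 is itself among the early response genes listed below. RNA integrity (RIN) in vehicle libraries was 7.75 ± 0.498 (SD, n = 15) in PFC, and the other 7 vehicle means lay between 5.91 and 6.69.

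The low members could be placed only roughly. Fos, the classic marker of recent activity, had 1285 counts in all and at least 1 count in 226 of the 235 libraries. In vehicle PFC it stood at 5.22, 13.6 and 32.7 CPM (lowest, median and highest of 15) and in vehicle dCA1 at 0, 2.84 and 8.22 CPM. Npas4 had 599 counts in all. It stood at 1.51, 9.45 and 25.0 CPM in vehicle PFC and had a median between 1.18 CPM (CER) and 3.84 CPM (vCA1) elsewhere, with libraries at 0 in each of those 7 regions. When the filter on low counts was left out, Fos and Npas4 also differed among regions (edgeR adjusted p = 7.37e-10 and 1.03e-12). Under the same setting Ier2 (adjusted p = 0.423) and Egr3 (adjusted p = 0.234) did not pass.

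Ier2 had 495 counts in 185 libraries, and its vehicle means lay between 1.92 CPM (CER) and 4.06 CPM (PFC). Egr3 had only 53 counts, in 42 libraries. Pooled over the 15 libraries of vehicle PFC it stood at 0.808 CPM (exact 95% Poisson interval 0.388 to 1.49, counting error only). It had no count in the 15 dexamethasone libraries of CER, where the same interval reaches 0.338 CPM (3 counts of the pooled total are 0.275 CPM). In the count table the last Egr3 exon ends at base 70080157 of chromosome 14 (mm10, plus strand), while GENCODE M21 ends the gene at 70082614. Junb likewise starts at 84976909 of chromosome 8 in the table and at 84974484 in GENCODE M21, which on its minus strand is the 3′ end. The effect of these shorter models on 3′ end counts was not tested. Homer1 (ENSMUSG00000007617, chr13:93303757-93404129, plus strand) was counted per gene, so its short activity-induced form and its long forms are not separated.

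Btg1 had a pattern of its own. Its vehicle mean was 19.3 ± 16.6 CPM (SD, n = 15) in vDG, 15.8 ± 5.75 CPM (SD, n = 15) in dCA1 and 7.39 ± 2.82 CPM (SD, n = 15) in AMY. In vDG the vehicle libraries ran from 3.37 through 16.4 to 67.1 CPM, and the 2 highest were replicates 4 (67.1 CPM) and 15 (43.3 CPM), which also held Gabra6 at 244 and 170 CPM. Vehicle replicate 15 of vCA1, with Gabra6 at 255 CPM, had Btg1 at 49.6 CPM. Without the 10 libraries with Gabra6 the vehicle mean of Btg1 was 15.1 ± 7.01 CPM (SD, n = 11) in vDG and 7.47 ± 2.81 CPM (SD, n = 13) in vCA1. The highest mean was then that of dCA1, followed by vDG, dDG and PFC, and vCA1 moved from the fourth to the seventh place. Btg1 still differed among regions (F = 8.12, edgeR adjusted p = 1.92e-07), in 15 of 28 pairs, and the step from dDG to PFC then passed (0.63 ± 0.23 SE, adjusted p = 0.0236).

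Animals differed from each other within a region, and many pairs of the members tested moved together in that spread. Egr3, Npas4 and Ier2 passed the filter in no region and were not correlated. In each region the log2 CPM of every member past the filter was centred on its treatment group, and pairs of genes were correlated over the 28 to 30 animals. Of 90 member pairs computed over the 8 regions, 54 had a Pearson r past an adjusted p of 0.05 (two-sided permutation test within treatment groups, 100000 permutations, Benjamini-Hochberg over the 90), and 50 passed by Spearman's rho. The median r was 0.474. All 54 were positive. Without the 10 libraries with Gabra6, 53 passed, and the pair lost was Egr1 with Homer1 in PFC (r = 0.390, adjusted p = 0.0579).

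**Figure D2:**
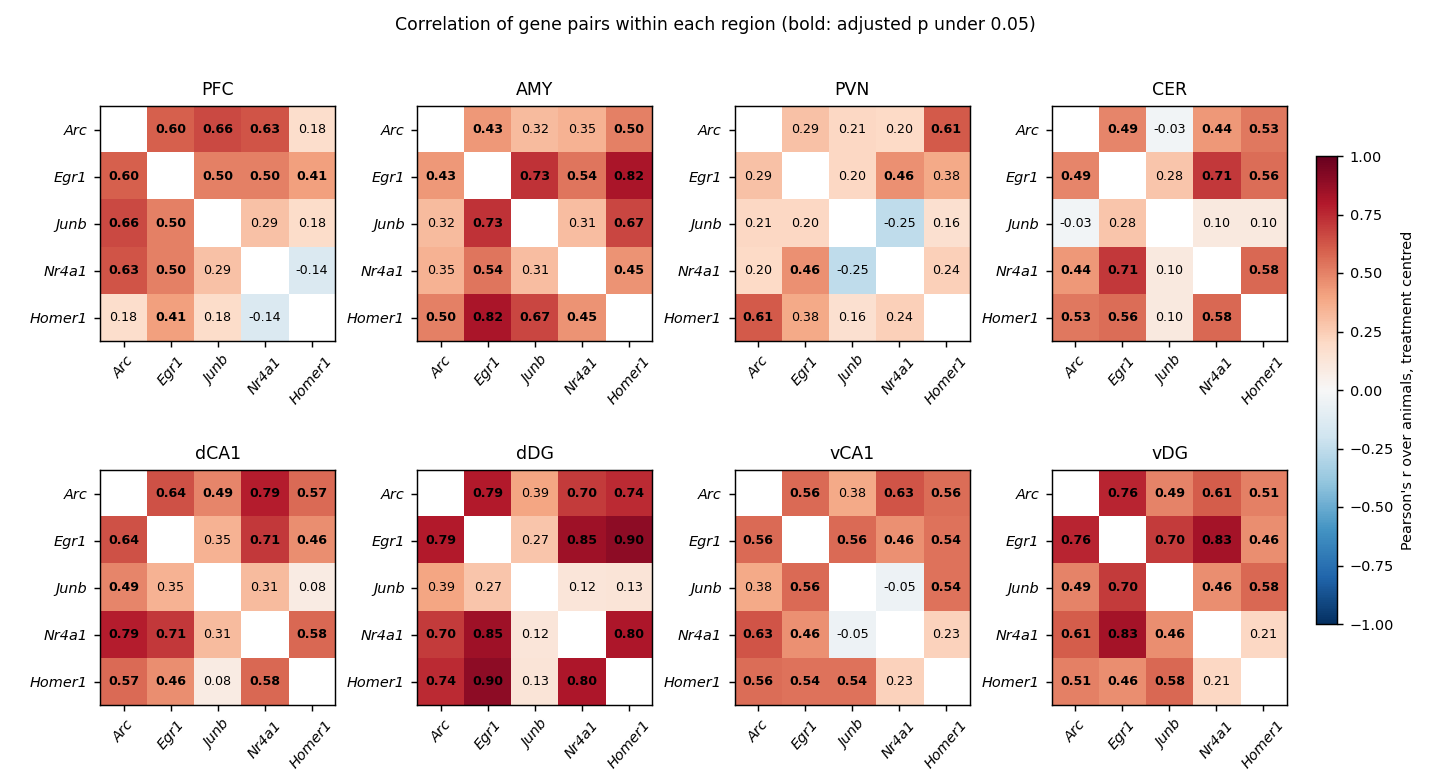
Pearson's r (colour and number, from -1 to 1) between each pair of the 5 members tested in all 8 regions, 1 panel per region, over 28 to 30 animals centred on their treatment group. Bold numbers have an adjusted p under 0.05. The strongest pair is Egr1 with Homer1 in dDG (0.90), and PVN has the fewest bold pairs.

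Correlations of this size were uncommon among genes in general. Of the 15 member pairs in PFC, 9 had an r of at least 0.5, against 2.66% of all pairs of tested genes there. The counts were 5 of 10 in AMY (1.86% of all pairs), 1 of 10 in PVN (1.7%), 4 of 10 in CER (1.86%) and 5 of 10 in dCA1 (3.84%). They were 6 of 15 in vDG (2.63%), 6 of 10 in vCA1 (1.78%) and 6 of 10 in dDG (2.49%). All genes tested enter these shares, including many with fewer counts than the members, and pairs that share a gene are not independent.

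Egr1 and Nr4a1, both transcription factors, were the pair that passed in all 8 regions. Their r ran from 0.455 (vCA1) to 0.845 (dDG), with a median of 0.621. In dDG rho was 0.785 and the permutation adjusted p was 9e-05, which comes from the smallest p the permutations allow (1e-05). With date of punching and plate removed, r was 0.739 in dDG and 0.794 in vDG. Without the 2 libraries farthest from the median of Egr1, r was 0.789 in dDG and 0.777 in vDG, but 0.261 in PVN, where the pair no longer passed (adjusted p = 0.254). Removing the libraries farthest on Egr1 also narrows its range, and the difference in r was not tested. Arc passed with Egr1 in 7 of 8 regions (median r = 0.581), with Homer1 in 7 (0.545) and with Nr4a1 in 6 (0.616). Egr1 and Homer1 passed in 7 regions, with a median r of 0.503. Without the 2 farthest libraries Egr1 and Homer1 no longer passed in PFC (r = 0.364) or dCA1 (r = 0.083), nor Arc and Homer1 in vDG (r = 0.401, adjusted p = 0.0854). Over all pairs, 12 of the 54 were lost that way and 1 was gained.

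The strongest single relation was between Egr1 and Homer1 in dDG, with r = 0.897 and rho = 0.900 over 30 animals (permutation test, adjusted p = 9e-05). It stood at 0.901 without the 2 farthest libraries, at 0.811 with date and plate removed, at 0.921 in the 15 vehicle animals and at 0.859 in the 15 dexamethasone animals. The same pair reached r = 0.816 (rho = 0.793) in AMY, with 0.819 without the 2 farthest libraries and 0.616 with date and plate removed. In PFC it was weaker (r = 0.409, rho = 0.406, adjusted p = 0.0357). In PFC the r of Homer1 with the other transcription factors was -0.143 with Nr4a1, -0.0670 with Fos and 0.184 with Junb, none of which passed.

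Fos could be correlated only in PFC. There it moved with Arc (r = 0.718, rho = 0.554, adjusted p = 0.00054), with Nr4a1 (r = 0.647, rho = 0.541, adjusted p = 0.00105), with Egr1 (r = 0.634, rho = 0.556, adjusted p = 0.00141) and with Junb (r = 0.534, rho = 0.435, adjusted p = 0.00926). Without the 2 libraries farthest from the median of Arc, r of Arc and Fos was 0.579 (permutation adjusted p = 0.0098), and with date and plate removed it was 0.665. Arc in PFC also moved with Junb (r = 0.659, rho = 0.698) and Nr4a1 (r = 0.629, rho = 0.542).

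Junb was the least tied of the 5 members measured everywhere. Its r with Nr4a1 passed in 1 of 8 regions (vDG, 0.462, adjusted p = 0.0216) and ranged from -0.253 (PVN) to 0.462. With Homer1 and with Arc it passed in 3 regions each, and with Egr1 in 4. In dDG, where the other 6 pairs among Arc, Egr1, Nr4a1 and Homer1 ran from 0.697 to 0.897, none of the 4 pairs with Junb passed, and their r lay between 0.123 and 0.392. No pair with Btg1 passed in vDG, where its r lay between -0.141 and 0.246, or between -0.0433 and 0.190 without the 7 libraries of vDG with Gabra6. Differences in r between pairs or regions were not tested.

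PVN had the weakest relations, with 2 of 10 pairs past the threshold and a median r of 0.227. Those were Arc with Homer1 (r = 0.610, rho = 0.602, adjusted p = 0.003, 0.652 without the 2 farthest libraries and 0.717 with date and plate removed) and Egr1 with Nr4a1. PVN also had the lowest vehicle means of Arc, Junb, Nr4a1 and Homer1, and the part of counting error was not tested. With date and plate removed, 5 of its 10 pairs passed at a median r of 0.372.

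Batch, library quality and marker levels were each removed in turn. With the date of punching and the plate of the library removed, 49 of the 90 pairs passed, with library total and RIN removed 53 did, and with the excitatory neuron marker level removed 40 did. With the excitatory markers removed, the median r over the 10 pairs of the 5 genes went from 0.460 to 0.227 in CER, with 1 instead of 6 pairs past the threshold. In vDG it went from 0.542 to 0.362 with these markers removed and to 0.348 with date and plate removed, with 4 instead of 9 pairs passing each time. In dDG (0.721 and 0.703) and vCA1 (0.543 and 0.541) it moved by less than 0.02 with the excitatory markers removed. The level of 8 dentate granule cell markers was removed in the 4 hippocampal regions. In dCA1 the median r then went from 0.528 to 0.338 and 2 instead of 7 pairs passed, while in dDG 8 instead of 6 pairs passed at a median of 0.636.

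**Figure D3:**
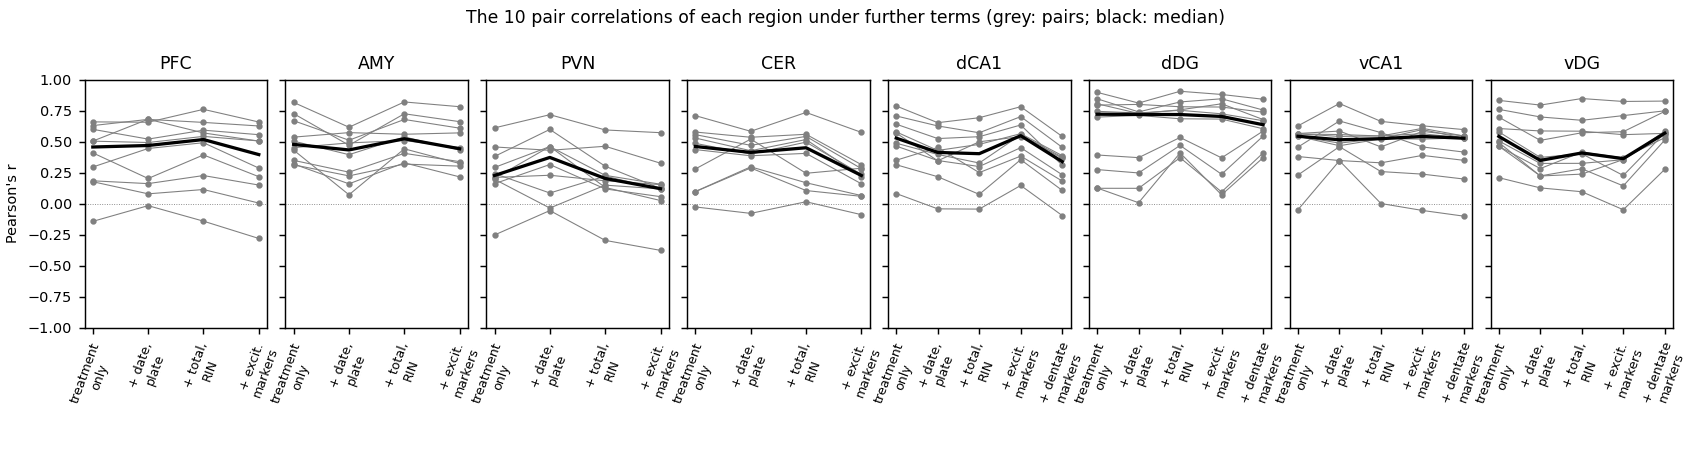
Pearson's r (vertical axis) of the 10 pairs of Arc, Egr1, Junb, Nr4a1 and Homer1 in each region, with treatment removed alone and then with further terms (horizontal axis). Grey lines are pairs and the black line is their median. The median is lower with the excitatory markers in CER (0.460 to 0.227) and with the dentate markers in dCA1 (0.528 to 0.338), and lies between 0.636 and 0.721 in dDG.

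Levels of a member in different regions of the same animals were weakly related. For each gene the treatment-centred level was correlated between regions of the same animals, over 28 pairs of regions and 27 to 30 animals a pair. The mean r was 0.119 for Nr4a1, 0.0842 for Arc, 0.0680 for Homer1, 0.0346 for Egr1 and 0.0312 for Junb. The median of the same value over all 7924 genes tested in every region was 0.0186, and its 95th percentile was 0.102. Single pairs of regions were higher, the highest being Arc between PFC and vCA1 (0.624) and Nr4a1 between CER and vDG (0.496). Without the libraries with Gabra6 the highest pair of Nr4a1 was PVN with vDG (0.681), and the mean r of Homer1 was 0.0386 and of Junb 0.0601. These single pairs are the extremes of 28 values each and are given as a description, with no test.

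Outside the 10 genes, the 4 whose spread between animals was most like that of Arc, Egr1, Junb, Nr4a1 and Homer1 were Prkcb, Rasgrp1, Hivep2 and Atp2b1. Likeness was the mean over the 8 regions of r with the mean standardised level of the 5 members. It was 0.678 for Prkcb, a protein kinase C, and 0.666 for Rasgrp1, an activator of Ras. It was 0.614 for Hivep2 and 0.594 for the plasma membrane calcium pump gene Atp2b1. Of 7919 genes, 0.24% reached 0.5. In dDG alone r was 0.913 for Prkcb and 0.891 for Rasgrp1, and in PFC 0.241 and 0.425.

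After dexamethasone few of the early response genes passed the test. Counted over regions, 42 member tests were made, because Arc, Egr1, Junb, Nr4a1 and Homer1 passed the filter in all 8 regions, Fos only in PFC, Btg1 only in vDG, and Egr3, Npas4 and Ier2 in none. Of these tests 2 passed, both lower after dexamethasone, which were Arc in CER and Homer1 in vCA1. That is 4.76% of the member tests, against 5.18% of all gene tests in the 8 regions together. Vehicle and dexamethasone libraries of the same number shared a plate and a lane, and with the replicate number as a block 4 passed, the others being Junb in PVN and Nr4a1 in dDG, both higher. The blocked share is 9.52% of the 42, against 6.41% of all gene tests. Without the block an unadjusted p under 0.05 was reached in 7 of the 42 (16.7%, against 13.8% of all gene tests). Point estimates were above 0 in 22 tests and below 0 in 20. By region, the share of all genes called was 6.14% in PFC, 5.61% in AMY, 5.67% in PVN, 6.18% in CER, 3.93% in vDG, 5.46% in vCA1, 3.65% in dDG and 4.72% in dCA1. Without the block the number of members called was 0 in every region but CER and vCA1, with 1 each.

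Arc (ENSMUSG00000022602, mm10 chr15:74669083-74672570, minus strand) stood in CER at 10.1, 24.8 and 53.3 CPM (lowest, median and highest) in the 15 vehicle libraries and at 5.63, 15.3 and 28.0 CPM in the 15 dexamethasone libraries. The groups overlapped, but 14 of the 15 dexamethasone libraries lay below the vehicle median and 5 vehicle libraries lay above every dexamethasone library. The fold change was -0.79 ± 0.21 (SE) on the log2 scale (edgeR adjusted p = 0.0124). Within each of the 4 plates and of the 4 punching dates with at least 2 animals a group the difference was below 0, between -1.33 and -0.31 on the log2(CPM + 1) scale. Leaving out any 1 of the 30 CER libraries left it called, with adjusted p up to 0.0347. The vehicle libraries of CER had an excitatory neuron marker level of 6.45 ± 0.958 (mean log2(CPM + 1), SD, n = 15), against 6.18 ± 0.456 (SD, n = 15) in the dexamethasone libraries. Over the 4 markers the summed level was 266, 609 and 2223 CPM (lowest, median, highest) after vehicle and 335, 494 and 820 CPM after dexamethasone. None of the 4 passed in CER, and none was at 0. With that level as a covariate the change of Arc was -0.61 and remained called (edgeR adjusted p = 0.0408). Prox1, one of 8 dentate granule cell markers, stood in CER at 128 ± 32.9 CPM (SD, n = 15) after vehicle and at 60.9 ± 21.2 CPM (SD, n = 15) after dexamethasone. The summed level of the 8 was 208, 250.2 and 447 CPM after vehicle and 133, 194 and 262 CPM after dexamethasone, with none at 0. Of the 8, 5 were tested in CER and only 1 was called, lower. The median change of the 5 was -0.13 on the log2 scale, so the fall of Prox1 does not stand for the list. With their level as a covariate, chosen after seeing the data, Arc was at -0.77 ± 0.23 (SE, edgeR adjusted p = 0.0284). The 4 endothelial markers had a median sum of 288 CPM after vehicle and of 222 CPM after dexamethasone in CER. Those of the 4 microglial markers were 119 and 107 CPM. As single genes, 1 of 3 endothelial and 1 of 3 microglial markers tested in CER were called lower. The part of these markers in the result was not tested.

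Homer1 in vCA1 stood at 101, 181 and 235 CPM in the 14 vehicle libraries and at 93.8, 121 and 174 CPM in the 15 dexamethasone libraries. All 15 dexamethasone libraries lay below the vehicle median, and 8 vehicle libraries lay above every dexamethasone library. The fold change was -0.38 ± 0.11 (SE, edgeR adjusted p = 0.0291). The call was lost, with adjusted p up to 0.0669, when any 1 of 6 libraries was left out, which were dexamethasone replicates 6 and 7 and vehicle replicates 4, 9, 10 and 13. Marker levels in vCA1 are given beside this. The vehicle libraries had a dentate granule cell marker level of 3.79 ± 0.742 (SD, n = 14), against 4.67 ± 0.810 (SD, n = 15) in the dexamethasone libraries (two-sided permutation test, p = 0.00562, adjusted p = 0.0829 over 16 tests). Of the 8 dentate markers 5 were tested in vCA1 and 3 rose, and their summed level was 129, 232 and 379 CPM after vehicle and 141, 358 and 979 CPM after dexamethasone. With that level as a covariate Homer1 was at -0.32 and did not pass (edgeR adjusted p = 0.252), and with the excitatory marker level at -0.31 (adjusted p = 0.0811). The 4 oligodendrocyte markers summed to 2143, 3798 and 5265 CPM after vehicle and to 1573, 2800 and 6050 CPM after dexamethasone, so the groups overlapped. The 4 endothelial markers had a median sum of 235 CPM after vehicle and of 177 CPM after dexamethasone, and the 4 microglial markers of 173 and 147 CPM, with none of these 12 at 0. The endothelial and microglial medians were lower after dexamethasone in all 8 regions, not in vCA1 alone, and none of these sums was tested. As single genes, 1 of 3 endothelial, 1 of 3 microglial and 1 of 4 excitatory neuron markers tested in vCA1 were called lower. None of the 4 oligodendrocyte markers was called there. The part of the oligodendrocyte, endothelial and microglial markers in the result was not tested. Without vehicle replicate 15 of vCA1, the library with Gabra6 at 255 CPM, Homer1 was at -0.43 ± 0.11 (SE, edgeR adjusted p = 0.00769). Within plates 3 of 4 differences were below 0.

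**Figure D4:**
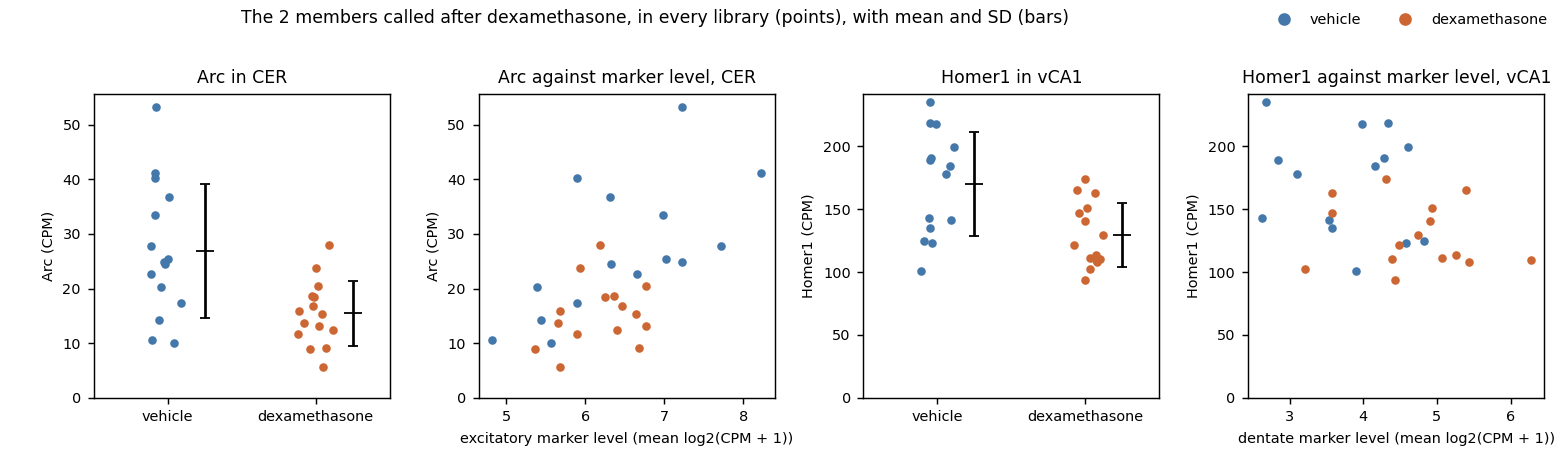
Left pair: Arc in CER (vertical axis, CPM) by treatment and against the excitatory neuron marker level. Right pair: Homer1 in vCA1 by treatment and against the dentate granule cell marker level. Points are libraries, blue for vehicle and orange for dexamethasone, and bars are mean and SD. For Homer1 all 15 dexamethasone libraries lie below the vehicle median of 181 CPM, and the mean dentate marker level is 4.67 against 3.79.

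Other members reached an unadjusted p under 0.05 without passing the adjusted threshold when the block was left out. Junb in PVN stood at 7.86, 14.0 and 20.0 CPM in vehicle and at 8.03, 18.8 and 35.4 CPM in dexamethasone libraries. There 7 of 15 dexamethasone libraries exceeded every vehicle library, and the fold change was 0.43 ± 0.16 (SE, edgeR adjusted p = 0.126). With the replicate block it was 0.51 ± 0.16 (SE) and passed (edgeR adjusted p = 0.0430), as did 6.64% of all genes in PVN. In AMY the Junb value was in the other direction, at -0.47 ± 0.21 (SE, adjusted p = 0.291), with vehicle at 16.7, 41.2 and 71.5 CPM and dexamethasone at 5.45, 28.0 and 50.2 CPM. Homer1 in AMY was at -0.44 ± 0.20 (SE, adjusted p = 0.276). Its vehicle libraries had a median of 123 CPM and its dexamethasone libraries one of 84.4 CPM, with 5 vehicle libraries above every dexamethasone library. The other 2 were below 0 as well, Homer1 in CER at -0.33 ± 0.16 (SE, adjusted p = 0.342) and Egr1 in PFC at -0.25 ± 0.12 (SE, adjusted p = 0.294).

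By gene, Nr4a1 had a fold change above 0 in all 8 regions, from 0.01 (vCA1) to 0.44 (dDG), and none passed. With the replicate block it was above 0 in 7 of 8, with vCA1 at -0.0011. The dDG value with the block was 0.46 ± 0.13 (SE) and passed (edgeR adjusted p = 0.0294), as did 6.42% of all genes in dDG. There the choroid plexus markers had a median sum of 62.3 CPM after vehicle and 28.3 CPM after dexamethasone. Those of the oligodendrocyte markers were 3495 and 2484 CPM, and those of the dentate markers 1076 and 1267 CPM. The groups overlapped in each, and the part of these markers in the result was not tested. Nr4a1 was also below 0 in vCA1 with date and plate as factors, and in dCA1 with the dentate marker level as a covariate. Homer1 was below 0 in 7 of 8 regions and Egr1 in 6 of 8 (7 with DESeq2 or upper-quartile scaling), the latter between -0.32 (AMY) and 0.07 (PVN). Arc was above 0 in 5 regions, up to 0.33 in dDG, and below 0 in AMY, PVN and CER. Punches of the 8 regions came from the same animals, so these are not 8 independent signs. Fos in PFC was at 5.22, 13.6 and 32.7 CPM in vehicle and at 6.26, 17.0 and 26.7 CPM in dexamethasone libraries, with a fold change of 0.02 and a 95% interval from -0.41 to 0.45. Btg1 in vDG was at -0.27 ± 0.34 (SE, edgeR adjusted p = 0.907), and at -0.24 ± 0.26 (SE, adjusted p = 0.865) without the 7 libraries of vDG with Gabra6. In dCA1 it was tested only without the filter on low counts. There it was at -0.59 ± 0.19 (SE, edgeR adjusted p = 0.0951), with 6 vehicle libraries above every dexamethasone library.

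**Figure D5:**
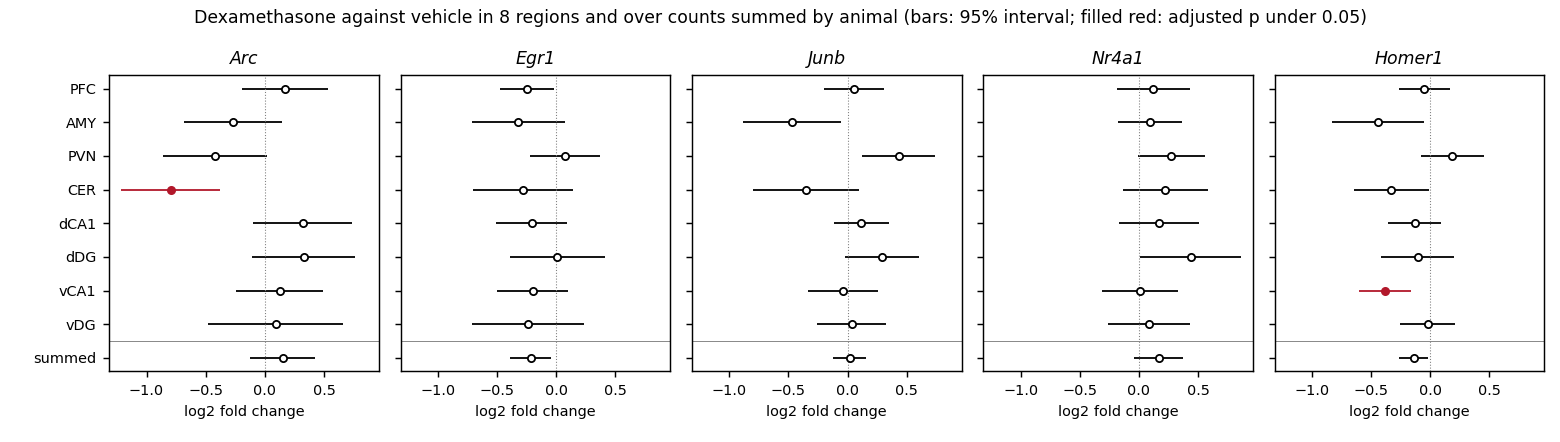
Log2 fold change after dexamethasone (horizontal axis) of the 5 members tested in all 8 regions, by region and for counts summed over the 8 regions of an animal. Points are edgeR estimates without a replicate block and bars are 95% intervals. Filled red points (Arc in CER, Homer1 in vCA1) have an adjusted p under 0.05, and all 8 regional values of Nr4a1 lie above 0 (7 of 8 with the block).

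Whether a member responded differently among regions was tested in 1 fit over all libraries. None of the 7 members tested passed (edgeR region by treatment F test with the animal as a block), against 1.26% of 11053 genes, and 2 had an unadjusted p under 0.05. These were Junb (p = 0.00895, adjusted p = 0.281) and Arc (p = 0.0268, adjusted p = 0.515). A difference between the fall of Arc in CER and its values elsewhere is not shown. In simulated counts with a fixed spread, the same test found 18.8% of 197 genes changed 2-fold in CER alone.

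To give the low members enough depth, counts of the 8 libraries of each animal were summed for the 26 animals with all regions, 13 in each group. None of the 9 members tested passed, against 18.6% of 13375 genes, and 3 had an unadjusted p under 0.05. With the replicate block 2 passed, both lower, against 19.2% of genes. Egr1 was at 91.7, 108 and 160 CPM (lowest, median and highest) in vehicle and at 70.7, 96.5 and 122 CPM in dexamethasone animals, a change of -0.22 ± 0.09 (SE, edgeR adjusted p = 0.0855), or of -0.18 ± 0.05 (SE, adjusted p = 0.0142) with the block. Npas4 was at 1.81, 3.80 and 9.36 CPM in vehicle and at 0.967, 2.25 and 6.12 CPM in dexamethasone animals, a change of -0.55 ± 0.24 (SE, adjusted p = 0.113). Homer1 was at -0.14 ± 0.06 (SE, adjusted p = 0.136), or at -0.13 ± 0.04 (SE, adjusted p = 0.0405) with the block. Fos was at 4.51, 6.88 and 14.6 CPM in vehicle and at 3.97, 7.02 and 10.9 CPM in dexamethasone animals, so its groups overlapped (-0.10, 95% interval -0.42 to 0.23). Ier2 was at 0.00 ± 0.15 (SE), and Junb at 0.02 ± 0.07, with a 95% interval from -0.12 to 0.16. Nr4a1 and Arc were above 0, at 0.17 ± 0.10 (SE, edgeR adjusted p = 0.329) and 0.15 ± 0.14 (SE, adjusted p = 0.556). Btg1 was at -0.23 ± 0.12 (SE, edgeR adjusted p = 0.225).

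Npas4 in vCA1 was tested only when the filter on low counts was left out. It stood at 0, 3.84 and 17.7 CPM in 14 vehicle libraries and at 0, 1.25 and 3.71 CPM in 15 dexamethasone libraries, from 53 and 19 counts in all. All 15 dexamethasone libraries lay below the vehicle median, and the change of -1.51 ± 0.44 (SE) then passed (edgeR adjusted p = 0.0371), as did 3.76% of all genes in vCA1 under that setting. It was the only one called of 38 tests of low members that were made only without the filter. In the other 7 regions Npas4 lay between -0.57 (PFC) and 0.09 (vDG), above 0 in 4 of them. The vCA1 call was lost when any 1 of 11 of the 29 libraries was left out, with adjusted p up to 0.164 without vehicle replicate 4, where the change was between -1.63 and -1.15 over all libraries left out. The others were vehicle replicates 7 and 10 and dexamethasone replicates 1, 3, 6, 8, 10, 12, 14 and 15. Within all 4 plates and all 4 punching dates it was below 0.

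A list of 50 other early response genes (chosen with earlier results of these data known) was counted in the same fits. Of its 28 to 34 members tested in a region, 5 to 9 rose and 0 to 4 fell, where between 3.65% (dDG) and 6.18% (CER) of all genes passed in either direction. In CER 9 rose and none fell (11 and 2 with the replicate block), and in dCA1 5 rose and 4 fell (4 and 5 with the block). Over all regions 36 of the list were tested in at least 1 region, and of these 17 rose in at least 1, 7 fell in at least 1 and 13 did neither, with Rgs2 counted both ways. Another 12 had enough counts only in the sums over regions. Those that rose in all 8 regions were Zfp36, which promotes decay of messenger RNAs (1.38 to 2.40 on the log2 scale), Tiparp (1.21 to 1.78), Gadd45g, a stress sensor (1.02 to 1.78), and Trib1 (at least 0.87). In the summed counts 19 of 48 rose and 5 fell, against 18.6% of all genes called there, with a median of 0.06 for the list and of -0.01 for all genes. Other lists were also counted. Of 30 genes that carry signals to early response promoters 27 or 28 were tested in a region, where 0 to 3 rose and 0 to 1 fell. Of 14 binding partners of Arc and Homer1 13 or 14 were tested, and none passed in any region. In the summed counts 2 of the 30 signalling genes rose and 3 fell (3 and 5 with the block), and of the 14 binding partners none rose and 1 fell (2 and none with the block). With the block up to 3 of the signalling genes fell in a region, and 1 binding partner fell in vCA1.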

How the data were processed

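Messenger RNA from 235 tissue punches was sequenced from the 3′ end with molecular identifiers (QuantSeq 3′ FWD). The authors deposited a table of raw counts per gene. Per the submitters' processing notes, the genome was mm10 and the tools included cutadapt, STAR 2.6.0a, UMI-tools 0.5.4, featureCounts 1.6.4 and DESeq2 1.30.1. Their roles and settings, and the use of strand in counting, are not given in the sources used here. The authors also deposited log2 values, variance-stabilised by the file names, for 228 of the libraries. These served only as an alternative for the correlations.

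Groups were taken from the labels. Counts were fitted with edgeR 4.0.16 (quasi-likelihood, TMM scaling, filterByExpr with a minimum count of 10), 1 fit per region, with treatment as the only term and a threshold of 0.05 on Benjamini-Hochberg adjusted p over all genes tested. Correlations used log2 CPM with a prior count of 2, centred on treatment, and 100000 permutations. Marker levels are means of log2(CPM + 1). Region differences and the interaction had the animal as a block. Alternatives were DESeq2 1.42.0, limma 3.58.1 (voom, for summed counts), no filter, upper-quartile scaling, a replicate block, batch, RIN and marker covariates, and leaving out each library. The excitatory marker terms, the dentate term in CER, the fits without libraries with Gabra6 at 10 CPM or more (for summed counts, without animals that have one) and the leaving out of each CER and vCA1 library, with and without the filter, were chosen after seeing the data. R 4.3.3, Python 3.11.15, scipy 1.17.1 and matplotlib 3.10.9 were used. Scripts were tested on simulated data. In simulated counts with a fixed spread, the fit for CER recovered 11.3% of 1.5-fold and 83.2% of 2-fold changes. Per the labels, vehicle and dexamethasone libraries of the same replicate number shared plate and lane in 115 of 115 pairs and date of punching in 109, so the number was taken to pair them as a batch. They come from different animals, the median correlation of their deviations ran from 0.0467 (vCA1) to 0.215 (PFC) by region, and 73 of 115 exceeded 0.1. The fit without the block is the one given first, and the blocked value stands beside a result where it changed the call.

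The members and gene lists were chosen with earlier results of these data known. All 10 members are named, and outside them the 5 genes with the highest likeness (the fifth is not reported here), up to 4 of the other early response genes that passed, and Fkbp5 and Tsc22d3 as the check of treatment. The rule did not fix which 4; the ones that rose in all 8 regions were taken after their values were seen. No 2 libraries agreed within sampling noise (smallest chi-square per degree of freedom 1.34). Counting intervals and floors cover counting error only.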

Additional observations from a re-analysis of the deposited data

How the results depend on the processing

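Of the 42 tests of members in regions, 2 passed. With the replicate block 4 did, with date and plate 1, with the excitatory marker level 1 and 1 with the libraries of the deposited log2 tables alone. Homer1 in vCA1 was the call lost in the last 3 settings, at -0.34 (edgeR adjusted p = 0.0746), -0.31 (0.0811) and -0.34 (0.0871), and its leave-one-out values ran from -0.43 to -0.34. The dentate marker level as a covariate, fitted for the hippocampal regions, weakened this call most. With it Homer1 in vCA1 was at -0.32 and did not pass (edgeR adjusted p = 0.252). Arc in CER stayed called in every alternative run, with leave-one-out values from -0.89 to -0.68. The cause of these shifts was not tested.

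The replicate block added Junb in PVN (0.51, edgeR adjusted p = 0.0430) and Nr4a1 in dDG (0.46, adjusted p = 0.0294). Of the summed counts 0 members passed, 2 with the replicate block (Egr1 at -0.18, adjusted p = 0.0142, and Homer1 at -0.13, adjusted p = 0.0405) and 1 with voom (Homer1 at -0.15, limma adjusted p = 0.0383). The block changed no other call of a member. Of 90 pair correlations 54 passed, but 23 in vehicle animals only and 25 in dexamethasone animals only, where each has about 15 animals. The median r was 0.474 over all animals, 0.465 in vehicle and 0.477 in dexamethasone animals. Without the libraries with Gabra6 at 10 CPM or more the 2 regional calls were the same and no summed member passed. No value that passed with or without a change of setting changed sign, while several that passed under neither did. Depth limits Egr3, Ier2 and Npas4 most.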
